A study of Mus musculus with 2 samples.

Results

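The genes of NRF2, glutathione and oxidative death were followed in HT22 cells, a hippocampal mouse line that the study describes as nerve cells. They are 42 genes picked by function: the transcription factor NRF2 and its sensor, enzymes that NRF2 induces, cystine uptake and glutathione synthesis, thioredoxins and peroxiredoxins, NADPH supply, iron handling, superoxide removal and lipid peroxidation. Earlier results of these data were known when they were chosen. The J147 group was 1 culture exposed to J147 for 1 h, and the vehicle group was 1 culture exposed to DMSO for 1 h, both in DMEM with 10% FCS. The J147 concentration is 10 μM in the methods of the study and 10 mM in the sample labels. DMSO is named in the sample title of the vehicle array, whose treatment label reads untreated. Neither source names glutamate or an oxidant, so the arrays describe cells under ordinary culture. RNA of each culture was hybridized to 1 Affymetrix mouse expression array, which carries probe sets, groups of short probes that read 1 stretch of mRNA each. There is 1 array per group, so differences have no replicates behind them and no test was run, and an effect of J147 and any other difference between these cultures cannot be told apart.

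NRF2 is held at a low level by KEAP1, which hands it to a ubiquitin ligase. When cysteines of KEAP1 are modified, NRF2 accumulates, pairs with a small MAF protein and binds antioxidant response elements in front of genes for glutathione synthesis, quinone reduction and thioredoxin recycling. HT22 cells are widely used to study death by oxidative glutamate toxicity: extracellular glutamate blocks the cystine and glutamate exchanger system xc-, the cells run out of cysteine and then of glutathione, and lipid peroxides made with the help of lipoxygenases and iron kill them. Glutathione peroxidase 4, which reduces such peroxides within membranes, stands against this route, also called ferroptosis.

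Of the 42 genes, 37 had at least 1 probe set of their own, 84 probe sets in all. Prdx1 and Ftl1 were listed only on 8 probe sets that also name another gene and so were assigned no value. Prdx5, Prdx6 and G6pdx were not found under their names in the probe annotation used, so no intensity was read for them. A gene was scored where the mean intensity of a probe set over both arrays exceeded 100 after each array had been scaled to a median of 100, and it was read from its brightest probe set. By this rule 36 of the 37 genes were scored, with 77 scored probe sets, against 10611 of 18193 genes on the whole array (58.3%). The exception was Alox15. Intensities of different probe sets depend on the probes as well as on the mRNA, so levels are compared below only between the arrays and not between genes.

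On the array, 46% of probe sets for J147 and 46.3% for vehicle lay at the floor of the table (to within 0.01 on the log2 scale), 95.1 scaled units for J147 and 95.4 for vehicle, where levels have no order. The log2 differences, J147 minus vehicle, of all 22545 scored probe sets had an SD of 0.18, and 18.9% of scored probe sets had the same deposited value on both arrays. Such a pair shows as -0.00 after scaling. The 3 probe sets for 18S rRNA had a median log2 difference of -0.63, and the part of this in the values below was not tested. Of 6 neuron markers, 5 lay at the lowest value on both arrays and Tubb3 lay above it, whereas all 6 fibroblast markers lay above it. Of 4 astrocyte markers, 2 lay above it (Slc1a3 and Gja1), and of 4 microglia markers 1 did (Csf1r). The 3 endothelium markers and the 2 oligodendrocyte markers with a probe set lay at it. In such a bulk sample, fewer cells with an mRNA and less of that mRNA per cell cannot be told apart.

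Since NRF2 acts through the antioxidant response element, its core, TGACNNNGC, was searched on both strands from 250 bases before to 50 bases after each start site in the RefSeq promoter table of GRCm38.p6. The table held 35 of the 42 genes with 46 promoters. By gene, 10 (28.6%) had the core in at least 1 promoter, against 14% of all 27025 genes of the table. By promoter, 11 of the 46 had it, against 12.4% of the 32851 promoters of the table. The 10 genes are Nfe2l2, Gclm, Txnrd1, Srxn1, Me1, Pgd, Sod1, Abcc4, Prdx1 and G6pdx. A match describes letters only, not a bound site. The windows of 29 bases below belong to NRF2 itself, to Gclm of glutathione synthesis, and to scored genes of the thioredoxin system and of NADPH supply, and are shown because the values of these genes are described below, while those of Sod1, Abcc4, Prdx1 and G6pdx are left out. Each window is written 5′ to 3′ on the strand that reads the core, with the core in capitals.
Nfe2l2, chr2:75704885-75704913, minus strand: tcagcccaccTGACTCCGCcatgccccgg
Gclm, chr3:122245413-122245441, minus strand: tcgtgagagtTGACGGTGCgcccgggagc
Txnrd1, chr10:82859104-82859132, minus strand: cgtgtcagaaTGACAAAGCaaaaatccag
Srxn1, chr2:152105542-152105570, minus strand: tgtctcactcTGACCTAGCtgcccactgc
Me1, chr9:86695902-86695930, minus strand: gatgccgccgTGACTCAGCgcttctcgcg
Pgd, chr4:149166061-149166089, minus strand: atttcagagcTGACATTGCactgatcgga

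Counted from the start site, the core begins at position -240 in Nfe2l2 and -134 in Gclm, while in Srxn1 and Pgd it lies just inside the transcribed part. In Me1 and Prdx1 it overlaps the AP-1 site TGACTCA. The 8 scored genes with the core had a median log2 difference of 0.01, from -0.09 for Pgd to 0.14 for Gclm, and the 23 scored genes of the table without it had a median of -0.06. Gclc, Hmox1, Abcc1, Gsr and Gsta4 were scored but have no promoter in the table, so they are in neither median. Whether they have the core was not examined. Their log2 differences by the brightest probe set were 0.20, 0.17, 0.15, -0.09 and 0.04, in that order. The medians describe the arrays and were not tested.

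No gene of the group passed 1.2-fold by its brightest probe set in either direction. The median log2 difference over the 36 scored genes was -0.01, against -0.00 over all 10611 scored genes. Of the 36, 14 genes lay above 0.01, 17 below -0.01 and 5 between. Of all 10611 scored genes, 3580 lay above 0.01, 4718 below -0.01 and 2313 between. At least 2-fold in either direction were 0 of 36 genes, where 0.141% of all scored genes were, and at least 1.5-fold 0 of 36, where 1.37% were. At least 1.2-fold higher with J147 were 0 of 36 (background 3.6%), and at least 1.2-fold lower 0 of 36 (background 6.23%). Over scored probe sets, the SD of the log2 differences was 0.18 in the group and 0.18 on the whole array. Over genes by the brightest probe set it was 0.10 in the group and 0.17 over all scored genes, without allowance for level. A smaller size of 1.1-fold was therefore also counted, a choice made after the values were seen. It held 4 genes higher with J147 (11.1%, background 10.8%), which were Gclc, Hmox1, Abcc1 and Gclm, and 2 lower (5.56%, background 16.4%), Cat and Gss. The other 30 genes lay within 1.1-fold, as the plot of intensities by gene shows.

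**Figure D1:**
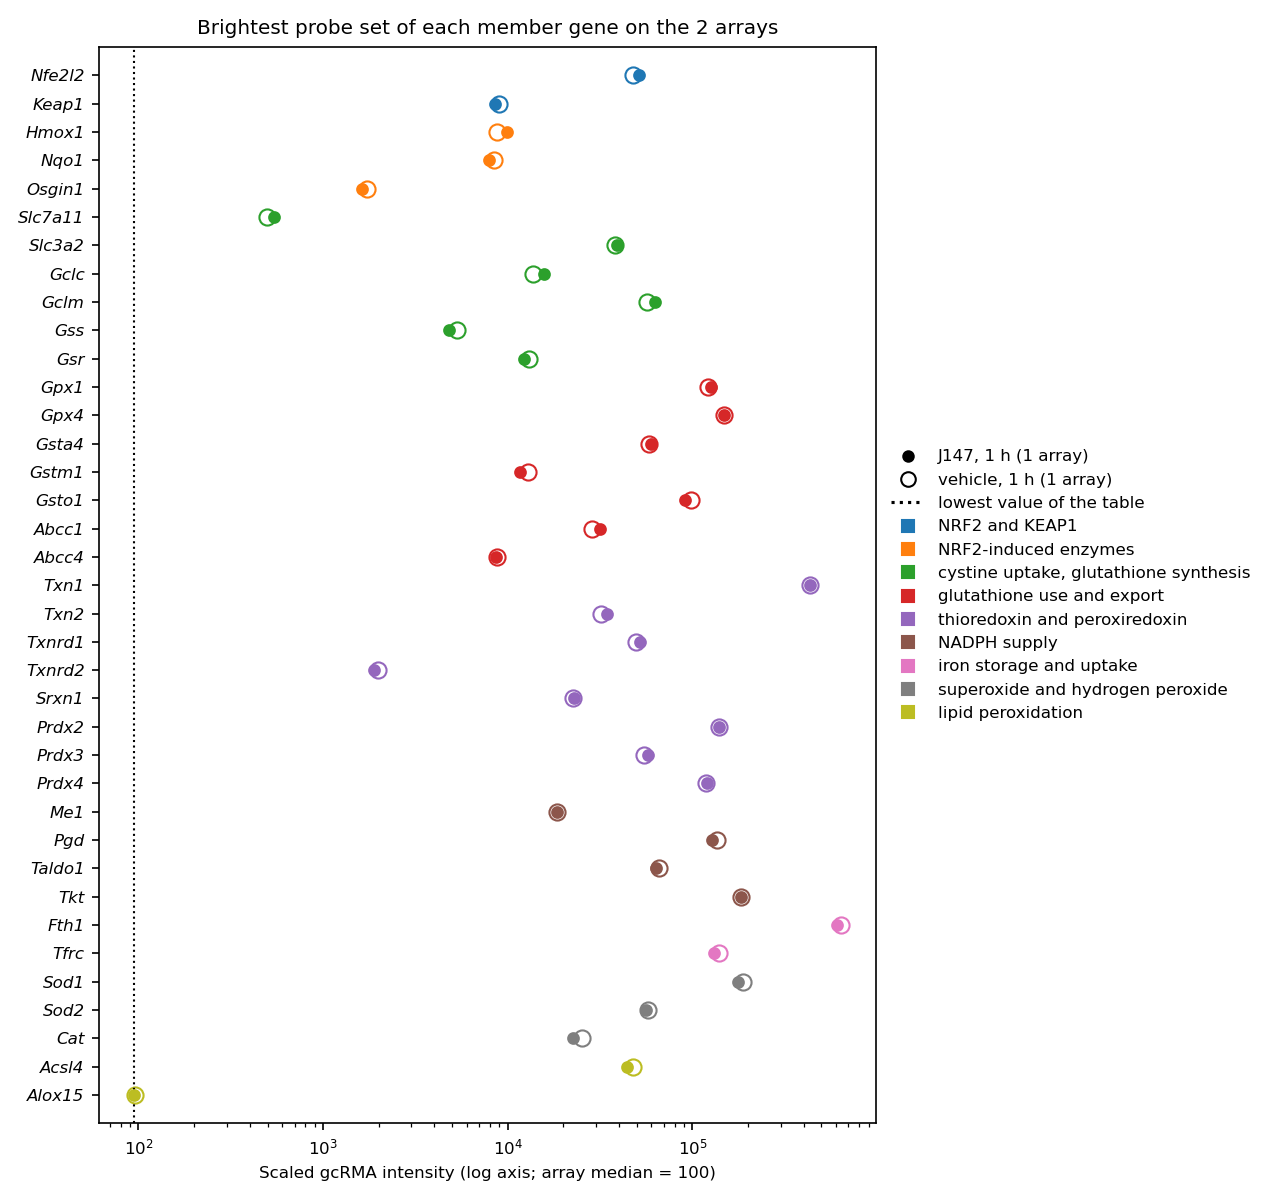
Scaled gcRMA intensity (horizontal, log axis, array median 100) of the brightest probe set of each gene with a value (vertical, colored by role) on the J147 array (filled circles) and the vehicle array (open circles), 1 array each. Circles of a gene nearly coincide throughout, and Alox15 lies on the dotted line, the lowest value of the table.

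The single probe sets held more than the brightest ones. Of 77 scored, 4 passed 1.2-fold upward with J147 (5.19%, background 5.04%) and 3 passed it downward (3.9%, background 6.09%). They belonged to 7 different genes, each of whose brightest probe set was below 1.2-fold. Only 1 was at least 2-fold higher (1.3%), where the background was 0.0754% of probe sets. It reads Nfe2l2, the gene of NRF2. Among 21 genes with at least 2 scored probe sets that differed between the arrays by over 0.01, 13 had all of these in the same direction (61.9%), against 55.9% of 3803 such genes on the whole array. Probe sets of a gene read the same RNA and are not replicates.

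**Figure D2:**
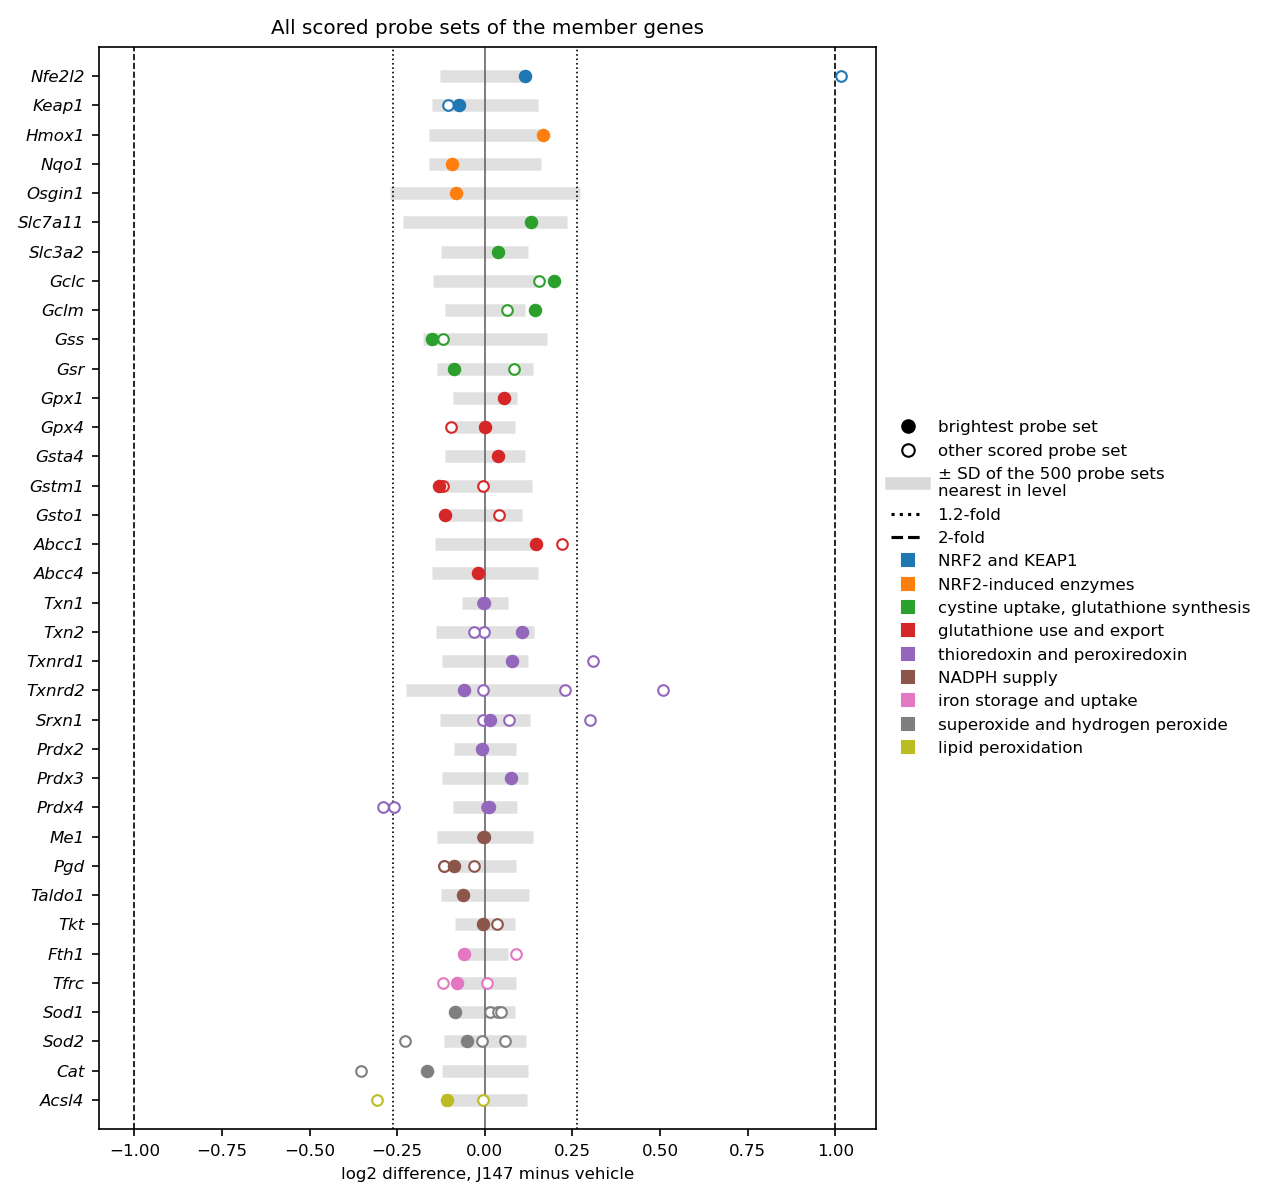
Log2 difference, J147 minus vehicle (horizontal), of every scored probe set of the 36 scored genes (vertical, colored by role). Filled circles are the brightest probe sets, open circles the others, and grey bars give ± the SD of the differences among 500 scored neighbors in level of the brightest. No filled circle reaches the 1.2-fold lines, and a single open circle, that of Nfe2l2 at 1.02, passes the 2-fold line.

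Nfe2l2 was read by a bright and a dim probe set, and both were higher with J147. The dim one, 1457117_at, had a scaled intensity of 626 for J147 and 310 for vehicle, a fold of 2.02 and a log2 difference of 1.02. Log2 differences had an SD of 0.25 among its neighbors, here and below the 500 scored probe sets closest in mean intensity. The bright one, 1416543_at, had 51409 for J147 and 47448 for vehicle, a fold of 1.08, with an SD of 0.13 among its neighbors. They share a direction and disagree on the size, and which stretch of the transcript each reads was not examined. Keap1, the gene of the NRF2 sensor, went the other way by less than the scatter of probe sets at its level. Probe set 1450746_at had 8555 for J147 and 8997 for vehicle, and 1450747_at had 1291 for J147 and 1388 for vehicle, log2 differences of -0.07 and -0.10 beside neighbor SDs of 0.15 and 0.24.

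**Figure D3:**
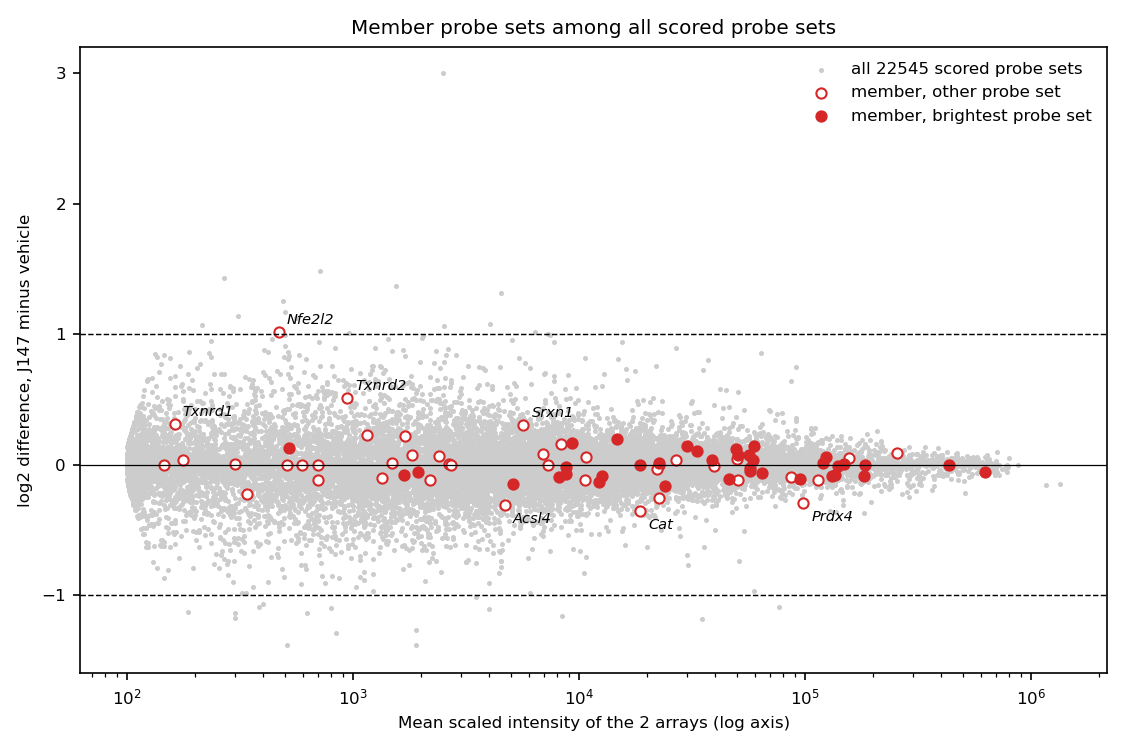
Log2 difference, J147 minus vehicle (vertical), against mean scaled intensity (horizontal, log axis) of all 22545 scored probe sets (grey) and the 77 of the group (red, filled for the brightest of a gene). Named probe sets passed 1.2-fold, and dashed lines mark 2-fold. Nfe2l2 lies at the upper dashed line among dim probe sets.

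Among the enzymes that NRF2 induces, Hmox1 was higher with J147 and the others were slightly lower. Hmox1 encodes heme oxygenase 1, which breaks down heme and frees its iron. It had 9846 for J147 and 8773 for vehicle, a fold of 1.12 and a log2 difference of 0.17 beside an SD of 0.16 among its neighbors. Nqo1, a quinone reductase often used as a readout of NRF2, had 7878 for J147 and 8400 for vehicle, a log2 difference of -0.09. Osgin1, an oxidative stress induced growth inhibitor, had 1632 for J147 and 1727 for vehicle, at -0.08. Each of these genes has a single probe set, and the median of the 3 was -0.08.

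The genes for cystine uptake and glutathione synthesis had a median of 0.08 over 6, with both subunits of the rate-limiting enzyme higher with J147. Glutamate-cysteine ligase joins glutamate to cysteine, the first step of glutathione synthesis. Its catalytic subunit Gclc had 15679 for J147 and 13669 for vehicle by probe set 1424296_at, a fold of 1.15 and the largest difference of any brightest probe set of the group, 0.20 beside a neighbor SD of 0.15. The other Gclc probe set, 1455959_s_at, had 8770 for J147 and 7873 for vehicle, a fold of 1.11. The modifier subunit Gclm, whose promoter has the core shown above, was close to this. It had 62390 for J147 and 56539 for vehicle by its brightest probe set, a log2 difference of 0.14 beside a neighbor SD of 0.12. Its dim probe set had 2449 for J147 and 2344 for vehicle, a fold of 1.04.

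The second enzyme of the route did not follow the first. Gss, glutathione synthetase, had 4803 for J147 and 5335 for vehicle by probe set 1448273_at, 1.11-fold lower, and 2106 for J147 and 2289 for vehicle by 1441931_x_at, 1.09-fold lower. Both differences, -0.15 and -0.12, were smaller than the SDs of their neighbors, 0.18 and 0.22. Gsr, which regenerates glutathione from its oxidized form, had log2 differences of -0.09 and 0.08 by its probe sets and so no single direction. Slc7a11, the subunit of system xc- that carries cystine, was dim: 544 for J147 and 496 for vehicle by 1420413_at, a log2 difference of 0.13 beside a neighbor SD of 0.24. The other Slc7a11 probe set lay at the lowest value on both arrays. Slc3a2, the heavy chain that brings Slc7a11 to the membrane and also serves other amino acid carriers, had 39006 for J147 and 38024 for vehicle, a fold of 1.03.

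The 7 genes that use or export glutathione had a median of 0.00. Gpx4, the peroxidase that reduces phospholipid peroxides, had 148719 for J147 and 148625 for vehicle by its brightest probe set, a fold of 1.00, and its second probe set had a log2 difference of -0.10. Gpx1, the cytosolic glutathione peroxidase, had 125493 for J147 and 120716 for vehicle, a fold of 1.04. Abcc1, an efflux pump for glutathione and its conjugates, was higher by both probe sets. It had 31568 for J147 and 28546 for vehicle by 1452233_at, a fold of 1.11 and a log2 difference of 0.15 beside a neighbor SD of 0.14, and 1830 for J147 and 1570 for vehicle by the dim 1421378_s_at, a fold of 1.17. The related pump gene Abcc4 had a log2 difference of -0.02. Of the glutathione S-transferase genes, Gstm1 had 11693 for J147 and 12798 for vehicle, 1.09-fold lower, and a further probe set of similar level was 1.09-fold lower as well. Gstm genes are alike in sequence, so these probe sets may read several of them. Gsta4 had 0.04, and the probe sets of Gsto1 had -0.11 and 0.04.

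In the thioredoxin system the brightest probe sets were nearly alike on the arrays, with a median of 0.01 over 8 scored genes and a range of -0.06 to 0.11, while dimmer probe sets of several genes differed. Txn1, cytosolic thioredoxin, had 433255 for J147 and 434151 for vehicle, a log2 difference of -0.00. Txn2, mitochondrial thioredoxin, had 34262 for J147 and 31853 for vehicle by its brightest probe set, at 0.11, and -0.00 and -0.03 by the other probe sets. Thioredoxin reductase, a selenoprotein that passes electrons from NADPH to thioredoxin, is encoded by Txnrd1 for the cytosol and Txnrd2 for mitochondria. Txnrd1 had 51877 for J147 and 49177 for vehicle by its brightest probe set, a log2 difference of 0.08. A dim one, 1424486_a_at, had 179 for J147 and 145 for vehicle, a fold of 1.24, not far above the floor of the table.

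The 4 probe sets of Txnrd2 did not agree. Probe set 1451936_a_at had 1108 for J147 and 778 for vehicle, a fold of 1.42 and a log2 difference of 0.51 beside a neighbor SD of 0.22. Probe set 1429972_s_at had 1245 for J147 and 1063 for vehicle, a fold of 1.17. The brightest, 1449097_at, had 1895 for J147 and 1974 for vehicle, a log2 difference of -0.06, and the last had the same deposited value on both arrays. Srxn1 encodes sulfiredoxin, which rescues overoxidized peroxiredoxins. Its probe set 1451680_at had 6232 for J147 and 5061 for vehicle, a fold of 1.23 and a log2 difference of 0.30 beside a neighbor SD of 0.17, whereas the brightest, 1426875_s_at, had 22750 for J147 and 22531 for vehicle, a log2 difference of 0.01. The other Srxn1 probe sets had 0.07 and -0.00.

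Peroxiredoxins reduce hydrogen peroxide with electrons from thioredoxin. Prdx2 had a log2 difference of -0.01 and the mitochondrial Prdx3 had 0.08. Prdx4, the peroxiredoxin of the endoplasmic reticulum, was read by bright probe sets that disagreed beyond the scatter at their level. Probe set 1416166_a_at had 87912 for J147 and 107645 for vehicle, 1.22-fold lower, a log2 difference of -0.29 beside a neighbor SD of 0.10. Probe set 1435731_x_at was also lower, with 20617 for J147 and 24666 for vehicle, a log2 difference of -0.26. The brightest, 1416167_at, had 119864 for J147 and 118926 for vehicle, a log2 difference of 0.01. The 8 probe sets that list Prdx1 or Ftl1 beside another gene had log2 differences from -0.17 to 0.03.

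NADPH is the electron source of both glutathione reductase and thioredoxin reductase. Of the 4 scored genes placed under NADPH supply, none was above 0.01 by its brightest probe set, and the median was -0.03. Pgd, phosphogluconate dehydrogenase of the pentose phosphate pathway, was lower by all 4 probe sets. Its brightest had 127174 for J147 and 135117 for vehicle, a log2 difference of -0.09 beside an SD of 0.09 among its neighbors, and the others had -0.12, -0.12 and -0.03. Taldo1, transaldolase, had 63200 for J147 and 65958 for vehicle, at -0.06. Me1, malic enzyme, and Tkt, transketolase, each had -0.00 by the brightest probe set, for Tkt with the same deposited value on both arrays. The other scored Tkt probe set had 0.04.

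Iron feeds lipid peroxidation, and its storage and uptake genes differed little. Fth1, the heavy chain of ferritin, had 609013 for J147 and 634652 for vehicle by its brightest probe set, a log2 difference of -0.06, and 262276 for J147 and 246628 for vehicle by another, at 0.09. Tfrc, the transferrin receptor that brings iron into the cell, had 131317 for J147 and 138742 for vehicle by 1452661_at, a log2 difference of -0.08 beside a neighbor SD of 0.09. Its other probe sets had -0.12 and 0.01. The array also carries 3 control probe sets along the Tfrc transcript, left out of the counts above, with log2 differences of -0.00 at the 3′ end, -0.21 in the middle and -0.12 at the 5′ end.

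Among the enzymes that remove superoxide and hydrogen peroxide, Cat had the largest differences and was lower with J147. It encodes catalase, the peroxisomal enzyme that splits hydrogen peroxide. Probe set 1416430_at had 16282 for J147 and 20789 for vehicle, 1.28-fold lower, a log2 difference of -0.35 beside a neighbor SD of 0.14. The brightest, 1416429_a_at, had 22528 for J147 and 25254 for vehicle, 1.12-fold lower, at -0.16 beside an SD of 0.12. Both Cat probe sets thus lay in the same direction beyond that scatter. By the brightest probe set, 7 of the 36 scored genes exceeded the scatter at their level. These were Gclc, Gclm, Hmox1, Abcc1, Gsto1, Sod1 and Cat, with Gsto1 and Sod1 lower and only just past it. The share over all scored genes was not counted. Sod1, the cytosolic superoxide dismutase, had 177375 for J147 and 188202 for vehicle by its brightest probe set, a log2 difference of -0.09, and 0.05 by the next, and the probe sets of the mitochondrial Sod2 ran from -0.23 to 0.06.

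Acsl4 and Alox15 stand on the side of death in this pathway. Acsl4 loads polyunsaturated fatty acids for membrane lipids, which peroxidation then attacks. It was lower by its brightest probe set, 1433531_at, with 44253 for J147 and 47682 for vehicle, a log2 difference of -0.11 beside a neighbor SD of 0.12. Probe set 1451828_a_at had 4177 for J147 and 5167 for vehicle, 1.24-fold lower, at -0.31 beside an SD of 0.18, and the remaining probe set had the same deposited value on both arrays. The single probe set of Alox15, the lipoxygenase named in glutamate toxicity of HT22 cells, lay at the lowest value on both arrays, so nothing can be said of a change.

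Beyond these genes, 4 further lists of the pathway were read, none of which shares a gene with the group. They were chosen with earlier results of these data known, so the shares below describe the lists and test nothing. Partners and regulators of NRF2 numbered 17, of which 15 were scored. Among them 3 passed 1.2-fold upward with J147 (20% of the list, 3.6% of all scored genes) and 0 downward (6.23% of all scored genes), and the median was 0.01. All 3 belong to the proteins that share the antioxidant response element with NRF2. Maff and Mafk encode small MAF proteins, which lack an activation domain and pair with NRF2 or its competitors. Bach1 encodes a repressor that occupies the element until heme displaces it. Maff had 1920 for J147 and 1048 for vehicle, a fold of 1.83 and a log2 difference of 0.87 beside a neighbor SD of 0.23. Mafk had 3442 for J147 and 2618 for vehicle, a fold of 1.31. Bach1 had 12749 for J147 and 10120 for vehicle by 1440831_at, a fold of 1.26, and 563 for J147 and 549 for vehicle by its dim probe set, a fold of 1.03.

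Further genes of this family were looked at after these values had been seen. The third small MAF gene, Mafg, had 30345 for J147 and 26731 for vehicle by its brightest probe set, a fold of 1.14, and 7228 for J147 and 6031 for vehicle by the other, a log2 difference of 0.26. Bach2, the relative of Bach1, had 2135 for J147 and 1863 for vehicle by its brightest, a fold of 1.15, 1768 for J147 and 1380 for vehicle by a second, a fold of 1.28, and equal deposited values by the remaining probe set. By the brightest probe sets, log2 differences were 0.39 for Mafk, 0.18 for Mafg and 0.20 for Bach2, beside neighbor SDs of 0.19, 0.13 and 0.22. The small MAF probe sets that the annotation names were thus all higher with J147, but they are few. On the whole array, 3580 of 10611 scored genes lay above 0.01. Nfe2l1, a relative of NRF2, had a log2 difference of -0.07, and Sqstm1, which draws KEAP1 into autophagy, had 0.08.

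Of 28 scored genes among other NRF2 targets and enzymes of glutathione metabolism, 0 passed 1.2-fold upward with J147 (3.6% of all scored genes) and 2 passed it downward (7.14%, near the 6.23% of all scored genes), and the median was -0.00. The genes were Chac1 and Chac2, both known to degrade glutathione. Chac1, a gamma-glutamyl cyclotransferase that the stress factor ATF4 induces, had 12554 for J147 and 19258 for vehicle, 1.53-fold lower, a log2 difference of -0.62 beside a neighbor SD of 0.14. Its relative Chac2 had 13667 for J147 and 16434 for vehicle, at -0.27 beside an SD of 0.15. Chac2 was just past 1.2-fold and came below it, at -0.26, with the values as deposited, with quantile normalization and with a lowess curve. The third largest difference was that of Cth, which makes cysteine from cystathionine, with 35508 for J147 and 30143 for vehicle, a fold of 1.18.

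Of 29 scored genes for ferroptosis, iron and membrane lipids, 1 passed 1.2-fold downward (3.45%, against 6.23% of all scored genes) and 0 upward (3.6% of all scored genes), with a median of -0.03. It was Cp, ceruloplasmin, a ferroxidase that helps iron leave the cell, with 16553 for J147 and 21628 for vehicle, 1.31-fold lower. Of its other scored probe sets, 5 were from 1.17-fold to 1.23-fold lower and a dim one had a log2 difference of 0.01. Next were the cytochrome b5 reductase gene Cyb5r1, with 43413 for J147 and 37014 for vehicle, 1.17-fold higher, and the fatty acid desaturase gene Fads1, with 21199 for J147 and 24807 for vehicle, 1.17-fold lower. Of 31 scored genes for selenoprotein synthesis and NADPH, 2 passed 1.2-fold downward (6.45%, near the 6.23% of all scored genes) and 0 upward (3.6% of all scored genes), with a median of -0.01. Idh1, the cytosolic isocitrate dehydrogenase that makes NADPH, had 18286 for J147 and 23868 for vehicle, 1.31-fold lower, and 9215 for J147 and 13346 for vehicle by its other probe set, 1.45-fold lower. The probe sets of Selenoi, an ethanolamine phosphotransferase, did not agree. Its brightest had 10555 for J147 and 13065 for vehicle, 1.24-fold lower, another was 1.11-fold lower, another had equal deposited values, and the dim 1442069_at had 332 for J147 and 258 for vehicle, 1.29-fold higher. Nnt, the mitochondrial transhydrogenase, had 30691 for J147 and 36506 for vehicle, 1.19-fold lower, and a log2 difference of -0.08 by its other scored probe set.

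**Figure D4:**
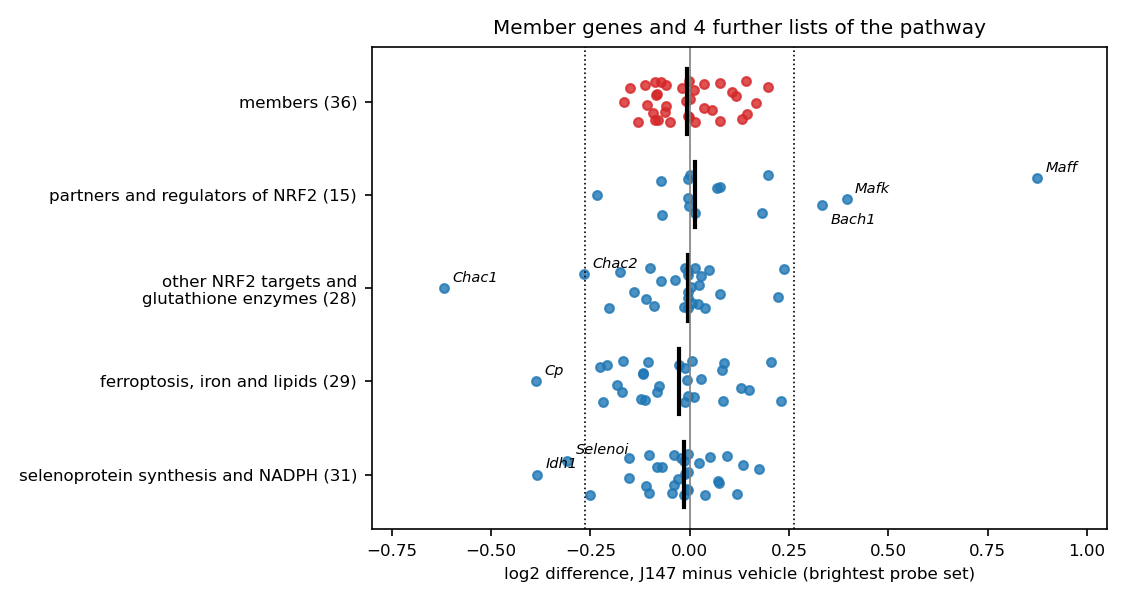
Log2 difference, J147 minus vehicle (horizontal), of each scored gene by its brightest probe set (points) in the group (red) and the 4 further lists (blue), with the number of scored genes in parentheses, the median as a black bar and dotted lines at 1.2-fold. The names mark genes past 1.2-fold: Maff at 0.87 lies highest and Chac1 at -0.62 lowest. Vertical scatter within a row only separates points.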

How the data were processed

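In R, the authors ran gcRMA, which estimates background from probe GC content, and deposited log2 intensities for 45101 probe sets, 64 of them controls. The labels also list Affymetrix Expression Console 1.0, and the version of gcRMA was not stated in what was read here. After the methods of the study, both arrays were scaled here to a median of 100 without the controls, and a probe set whose mean exceeded 100 was scored. Scaling moved each log2 difference by -0.00459. Gene symbols came from the platform annotation, updated through Entrez gene numbers to a RefSeq table of GRCm38.p6: 34945 probe sets have 1 symbol, 932 several and 9160 none. Genes and lists were chosen with earlier results of these data known. Named with both values were, in each role, the 2 largest differences, genes with probe sets on both sides of 1.2-fold, genes at the lowest value and a fixed core, and from each further list the 3 largest differences. Other names were added to complete a family or role. The SD of the 500 neighbors measures scatter between 2 arrays, not between cultures. Precision is limited by the number of arrays. As alternatives, the deposited values were used unscaled, quantile normalized, corrected with a lowess curve (span 0.3), given a pseudocount of 50, left unfiltered or filtered at a mean above 200, genes were read in other ways, and identical values were left out. The software was Python 3.11.15 with numpy 2.4.6, pandas 2.3.3, statsmodels 0.14.6 and, for figures, matplotlib 3.10.9. The calculations were tested on simulated data.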

Additional observations from a re-analysis of the deposited data

How the results depend on the processing

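Of 437 values under 9 alternatives, 416 stayed close to the reported ones (within 1.5 times for counts, 0.05 for medians and the SD of the 500 neighbors for genes) and 21 moved. The 416 do not measure robustness, since many values could hardly move. Leaving values unscaled shifts every log2 difference by the same small constant, below the limits for medians and genes. Values of single genes were unchanged with no filter and with the stricter filter. By the brightest probe set, only 7 of the 36 scored genes differed by more than their neighbor SD. The other scored genes could fall to 0 and still count as close. The way the probe sets of a gene were combined accounted for most of the 21 moves. With all scored probe sets of each gene averaged, 1 gene of the group passed 1.2-fold upward with J147, and the median of Nfe2l2 and Keap1 was 0.24. Without probe sets of the suffixes _x_at, _s_at and _a_at, 1 gene was at least 1.2-fold higher and 1 lower, and the median of Sod1, Sod2 and Cat was -0.00773. With no filter the median of Acsl4 and Alox15 was -0.0561, since Alox15 then enters. Of the further lists, the NRF2 partners had a median of 0.0688 without identical values. With probe sets averaged, 2 of them were at least 1.2-fold higher, as Bach1 came below the threshold at 0.18. Cp, at -0.25, and Selenoi, at -0.02, also came below it when averaged. The count of other NRF2 targets and glutathione enzymes at least 1.2-fold lower was 1 with the values as deposited, with quantile normalization and with the lowess curve, as Chac2 came below the threshold. Without the suffixes that count was 2 for ferroptosis genes and 0 for selenoprotein and NADPH genes, and with probe sets averaged 1 gene of the selenoprotein list was at least 1.2-fold higher. Of 185 values of single genes, 8 moved. Nfe2l2 moved to 0.57 by the mean, and Srxn1 to 0.30 and Cat to -0.35 without the suffixes. The others crossed 0. By the mean, Txnrd2 went from -0.06 to 0.17 and Prdx4 from 0.01 to -0.13. Fth1 went from -0.06 to 0.01 and Sod1 from -0.09 to 0.004, also by the mean. Without the suffixes Sod1 was at 0.05. The direction of these genes thus depends on how their probe sets are read. All 8 moves of single genes came with probe sets averaged or the suffixes left out, and which reading is closer to the mRNA was not tested. No paired analysis was possible because each group has 1 array.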

Other observations

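Nadk2, the mitochondrial NAD kinase that makes NADP from NAD, was picked from the selenoprotein and NADPH list after its values were seen, because 2 of its dimmer probe sets differed more than its brightest. By 1437285_at it had 1615 scaled units for J147 and 2489 for vehicle, 1.54-fold lower. By 1437286_x_at it had 2535 for J147 and 3634 for vehicle, 1.43-fold lower. The brighter 1437287_at, by which the gene was read, had 8805 for J147 and 9787 for vehicle, 1.11-fold lower, and 1453422_a_at had a log2 difference of -0.10. All 4 Nadk2 probe sets lay in the same direction. Other genes of the list had a dimmer probe set that differed more than the brightest and was higher with J147. Secisbp2 was 1.39-fold higher by 1428497_at and Sod3 was 1.25-fold higher by 1417634_at. Their brightest probe sets had log2 differences of 0.09 and -0.10.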
